A study of Homo sapiens with 8 samples.

Results

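The 10 genes described here encode subunits of the transcription factor NF-kB (NFKB1, NFKB2, RELA and RELB), proteins that restrain its activation (NFKBIA, TNFAIP3 and TNIP1) and zinc finger proteins that direct the decay of messenger RNAs (ZFP36, ZFP36L1 and ZFP36L2). They were picked by gene name, and all 10 were found, each under a single gene identifier, among the 19158 genes of every library. RNA had been measured in 8 wells of A549 cells, an established epithelial line from a human lung adenocarcinoma with a genotype labelled wild type, grown in DMEM with serum. The 4 untreated wells had received no treatment, with no vehicle named, and the 4 dexamethasone wells had received 1 µM dexamethasone, a synthetic glucocorticoid, for 48 h. Both groups carried the replicate numbers 1, 3, 4 and 5 and the same batch label. The labels name no cytokine or other inflammatory stimulus in either group, so all levels are those of unstimulated cultures of 1 cell line, and p-values measure the spread between wells.

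NF-kB acts as dimers of 5 related proteins, of which RELA, RELB and REL carry an activation domain, while NFKB1 and NFKB2 are made as precursors that are processed to DNA-binding subunits. In the canonical branch, inflammatory receptors activate the IKK kinases, which mark the inhibitor NFKBIA (I-kappa-B-alpha) for destruction and free dimers that contain RELA. In the non-canonical branch, the kinase MAP3K14 drives processing of NFKB2, which pairs with RELB. TNFAIP3 (A20), an enzyme that edits ubiquitin chains, and its partner TNIP1 act upstream of IKK, and NFKBIA and TNFAIP3 are textbook target genes of NF-kB itself. ZFP36 (tristetraprolin) and its relatives bind AU-rich elements in the 3' untranslated region (3' UTR) of cytokine and other short-lived messages and recruit the enzymes that shorten the poly(A) tail. The glucocorticoid receptor is known for repressing inflammatory genes in airway epithelium, in part through induced genes such as ZFP36 and NFKBIA.

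Values were read as FPKM, fragment numbers scaled both to transcript length and to library size. This unit, which allows levels of different genes to be compared, was inferred from the values because the files do not name it. The step between low values corresponded to roughly 24670000 to 28530000 fragments per library. With the lengths of GENCODE v44 canonical transcripts, this puts the members between about 133 fragments (TNFAIP3 in its lowest library) and 9780 fragments (TNIP1 in its highest). The lengths behind the deposited values are not given, so these numbers are rough. The treatment labels were checked on FKBP5, TSC22D3 and PER1, known glucocorticoid-induced genes, which ranged over 3.28 to 7.30, 4.48 to 7.07 and 3.10 to 3.83 FPKM in untreated libraries and over 87.3 to 166, 91.8 to 111 and 14.0 to 19.9 FPKM in dexamethasone libraries. The epithelial keratins KRT8 and KRT18 were at 805 FPKM or more in every library and CDH1 at 4.90 to 8.52 FPKM in untreated and 16.6 to 19.7 FPKM in dexamethasone libraries, KRT19 at 131.5 to 200.4 and 43.97 to 64.2 FPKM, while EPCAM stayed at or below 0.765 FPKM. Summed immune markers (6 of 7 listed) were at 8.0 to 9.28 FPKM in untreated and 3.60 to 4.52 FPKM in dexamethasone libraries. In the same order CD68 was at 3.65 to 4.88 and 1.811 to 2.235 FPKM and CD14 at 2.01 to 3.14 and 1.19 to 1.56 FPKM. ITGAM was at 1.76 to 2.30 and 0.536 to 1.09 FPKM, LYZ did not exceed 0.0494 FPKM, and PTPRC and CD3E were at 0 in all 8. Summed fibroblast markers were at 1.81 to 2.29 FPKM in untreated and 0.598 to 0.779 FPKM in dexamethasone libraries. COL1A1 was at 1.79 to 2.25 and 0.274 to 0.437 FPKM, while DCN went from 0 to 0.178 to 0.355 FPKM. PDGFRB and LUM did not exceed 0.1225 FPKM, and COL1A2 was at 0 throughout. Summed endothelial markers did not exceed 0.182 FPKM. In bulk RNA of this kind, fewer cells with a transcript and less of it per cell cannot be told apart.

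The genes carry sequence features tied to both arms of this system, and these are shown first. RefSeq promoter windows (GRCh38.p14, 250 bases before to 50 after a transcript start) were at hand for 8 members in 14 windows, and none for RELB and ZFP36L2. The 10-base kappa-B consensus, the DNA site of NF-kB, was searched on both strands with overlapping matches counted. It matched in 5 of the 8 (NFKB1, NFKB2, NFKBIA, TNFAIP3 and TNIP1) and not in the windows of RELA, ZFP36 and ZFP36L1, while 7.09% of all 27305 genes in the table held a match. The window at an internal start of NFKB2 held 3 matches, 2 of which overlap, while the window at the start of the gene was without a match. These 30-base stretches, on the strand of the gene and with the match in capitals, show the site in genes that rose, fell and did not pass the test.

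NFKB1, 49 bases before a start, chr4:102501300-102501329, plus strand: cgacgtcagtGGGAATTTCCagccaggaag
NFKB2, 107 bases before an internal start, chr10:102394461-102394490, plus strand: gaaacgtcatGGGAATTCCCccctccgggg
NFKB2, 21 bases before a further start, chr10:102395674-102395703, plus strand: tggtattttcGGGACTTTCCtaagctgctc
NFKBIA, 81 bases before the start, chr14:35404811-35404840, minus strand: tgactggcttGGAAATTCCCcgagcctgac
TNFAIP3, 67 bases before the start, chr6:137867182-137867211, plus strand: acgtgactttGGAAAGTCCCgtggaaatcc
TNIP1, 42 bases before a start, chr5:151081057-151081086, minus strand: ccagtctccgGGGACTTTCCcaggggtggg

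NFKBIA has a single window, and its whole upstream part is given because this gene is both an inhibitor and a known target of NF-kB. It lies at chr14:35404750-35404999 on the minus strand, overlaps no annotated exon in GENCODE v44, and holds the kappa-B match in capitals: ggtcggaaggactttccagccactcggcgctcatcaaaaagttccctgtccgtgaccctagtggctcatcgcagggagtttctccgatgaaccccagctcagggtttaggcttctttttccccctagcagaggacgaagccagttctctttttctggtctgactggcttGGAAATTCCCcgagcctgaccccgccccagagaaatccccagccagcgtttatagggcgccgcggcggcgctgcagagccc. The glucocorticoid response element hexamer AGAACA and the full palindromic element in a relaxed form were also searched on both strands and matched in 0 of the 14 windows, where 14.8% and 0.39% of all 35116 windows held a match. No match says only that these letters are not in these windows.

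The AU-rich heptamer TATTTAT, searched on the transcript strand of the GENCODE v44 canonical 3' UTR, was in 5 members: all 3 ZFP36 genes with 3 copies each, and NFKBIA and TNFAIP3 with 2 each. The longer nonamer TTATTTATT, which contains the heptamer, was in 4 of these, NFKBIA being the exception. Of all 12060 tested genes with a 3' UTR, 35.5% held the heptamer and 9.34% the nonamer. One site from each gene is shown, in DNA letters, with the heptamer in capitals and the place of its first base in the 3' UTR.

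ZFP36, base 508 of 708 in its 3' UTR, chr19:39409201-39409219, plus strand: cgacttTATTTATtctaat
ZFP36L1, base 1439 of 1871, chr14:68788082-68788100, minus strand: ttggatTATTTATtttaga
ZFP36L2, base 854 of 1917, chr2:43223453-43223471, minus strand: ttaactTATTTATtatctt
NFKBIA, base 297 of 500, chr14:35401704-35401722, minus strand: attttaTATTTATtgtgct
TNFAIP3, base 990 of 1993, chr6:137882303-137882321, plus strand: tcacttTATTTATtttatt

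After dexamethasone the 3 inhibitors rose, the non-canonical subunits NFKB2 and RELB fell, and ZFP36 and ZFP36L2 rose. In all, 7 of the 10 members had a limma adjusted p under 0.05, 5 higher and 2 lower, and their groups did not overlap. The other 3, NFKB1, RELA and ZFP36L1, did not pass. All 10 passed the filter on low values, and across the 12161 genes tested 26.8% passed, 12.6% higher and 14.2% lower, and 31.5% had groups that did not overlap. The median log2 fold change was 0.38 for the 10 members and 0.01 for all genes tested. All log2 fold changes here are dexamethasone minus untreated on the log2(FPKM + 1) scale after scaling between libraries, and p-values are adjusted over all genes tested.

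**Figure D1:**
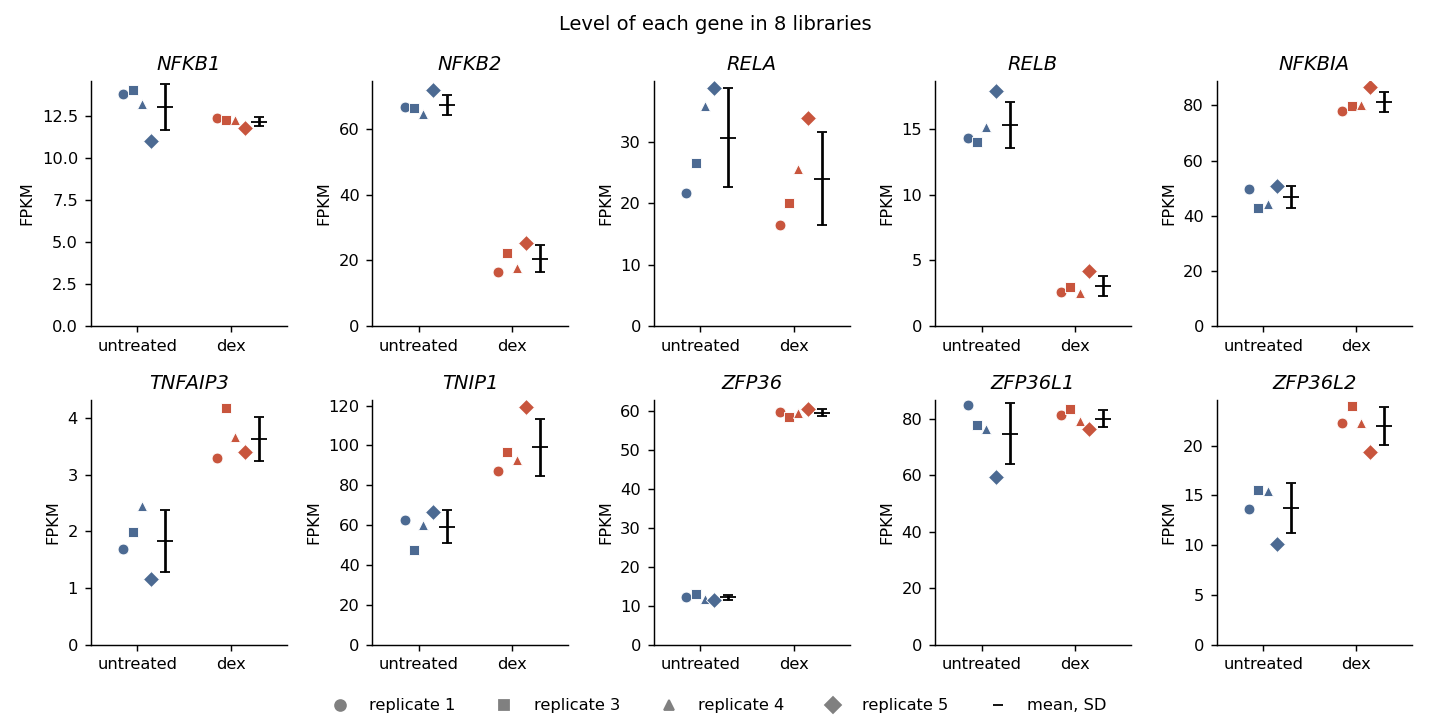
FPKM of each of the 10 genes (vertical axes, from 0) in the untreated and dexamethasone libraries, with the replicate number as symbol and the mean and SD (n = 4 per group) in black. ZFP36 sits between 11.6 and 13.1 FPKM in untreated and between 58.4 and 60.5 FPKM in dexamethasone libraries, while the groups of NFKB1, RELA and ZFP36L1 overlap.

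Among the subunits, NFKB2 (ENSG00000077150, chromosome 10, 102394110 to 102402529, plus strand), which encodes the p100 precursor of p52, had 66.6, 66.4, 64.6 and 71.8 FPKM in untreated libraries 1, 3, 4 and 5. In the same order the dexamethasone libraries had 16.6, 22.3, 17.6 and 25.2 FPKM. Every dexamethasone value lay below every untreated one, and the mean fell from 67.3 ± 3.11 to 20.4 ± 4.08 FPKM (SD, n = 4 each), which makes it 3.30-fold lower. On the log2 scale it fell by 1.70, with a standard error of 0.200 (adjusted p = 0.000247, limma).

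RELB (ENSG00000104856, chromosome 19, 45001430 to 45038198, plus strand), the activating partner of p52, had 14.3, 14.0, 15.1 and 17.9 FPKM in untreated replicates 1, 3, 4 and 5 and 2.57, 2.99, 2.49 and 4.17 FPKM in the dexamethasone ones. The gap between the groups was wider than the range within either. Its mean of 15.3 ± 1.76 FPKM went to 3.05 ± 0.778 FPKM (SD, n = 4 each), 5.02-fold lower. The log2 fold change of -2.02 had a standard error of 0.209 (adjusted p = 0.000112, limma) and was -2.32 with a pseudocount of 0.1 in place of 1. Only 0.362% of all genes tested had a lower log2 fold change than RELB, and 0.724% a lower one than NFKB2. In both groups replicate 5 held the highest NFKB2 and RELB values.

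RELA (ENSG00000173039, chromosome 11, 65653596 to 65663094, minus strand), the main activating subunit of the canonical branch, had the widest spread of the members relative to its mean after dexamethasone. Untreated replicates 1, 3, 4 and 5 had 21.6, 26.6, 35.9 and 38.8 FPKM, and dexamethasone replicates 16.4, 20.1, 25.6 and 33.9 FPKM. The groups overlapped across most of their range, with means of 30.7 ± 8.02 and 24.0 ± 7.57 FPKM (SD, n = 4 each). The log2 fold change was -0.36 with a 95% interval of -1.04 to 0.31 (limma adjusted p = 0.397), the widest interval of the 10 members. The estimate was -0.16 without untreated replicate 5, -0.18 without dexamethasone replicate 1 and -0.58 without dexamethasone replicate 5, and -0.13 with the GC trend removed. The limma adjusted p stayed between 0.14 and 0.719 in these fits. With the replicate number as a further term, RELA passed at the same estimate of -0.36 (limma adjusted p = 0.0104). With that term and the GC trend removed it was at -0.13 and did not pass (limma adjusted p = 0.181). RELA overlaps RELA-DT on the opposite strand, whose reads cannot be told apart unless the counting used strand, which is not stated.

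NFKB1 (ENSG00000109320, chromosome 4, 102501329 to 102617302, plus strand), which encodes the p105 precursor of p50, was steady in comparison. Its untreated values were 13.8, 14.0, 13.2 and 11 FPKM and its dexamethasone values 12.3, 12.2, 12.2 and 11.8 FPKM in replicates 1, 3, 4 and 5. Untreated replicate 5 was the lowest of the 8 libraries, and the dexamethasone values lay within the untreated range. The log2 fold change was -0.09, with a 95% interval of -0.33 to 0.15 (limma adjusted p = 0.557).

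The make-up of the subunit transcripts in each library is shown by their shares. The sum of the 4 subunits was 126 ± 10.1 FPKM in untreated and 59.6 ± 11.3 FPKM in dexamethasone libraries (SD, n = 4 each). NFKB2 made up 50.1% to 57.3% of that sum in untreated and 30.3% to 38.7% in dexamethasone libraries, and RELB 11.6% to 12.8% and 4.30% to 5.56%. RELA made up 18.6% to 27.9% in untreated and 34.3% to 45.1% in dexamethasone libraries, and NFKB1 7.88% to 11.9% and 15.7% to 25.8%, although neither passed the test for a change in its own level. RELB was at 0.421 to 0.663 of the RELA level in untreated and at 0.0972 to 0.157 in dexamethasone libraries. None of these 5 shares and ratios overlapped between the groups, and they are given as descriptions with no test.

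**Figure D2:**
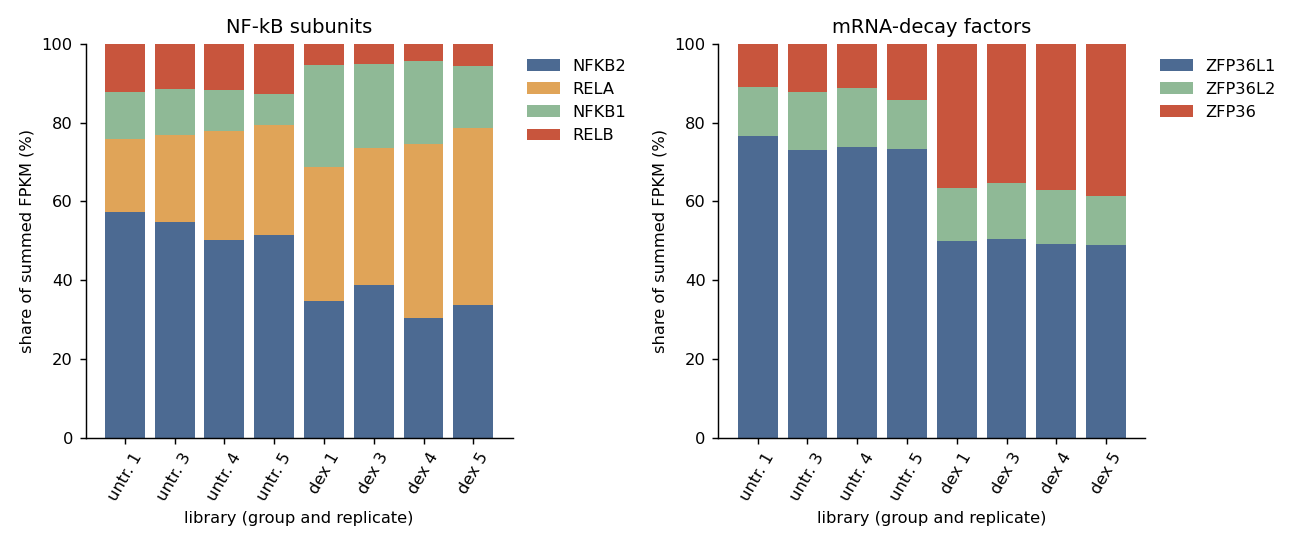
Share of each gene in the summed FPKM of the 4 NF-kB subunits (left) and of the 3 ZFP36 genes (right) in each of the 8 libraries, in percent. NFKB2 takes 50.1% or more of the subunit sum in untreated libraries and 38.7% or less after dexamethasone, and ZFP36 goes from at most 14.2% to at least 35.2% of its family.

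The 3 inhibitors among the members moved the other way from NFKB2 and RELB. Other I-kappa-B genes, given below, did not all do so. NFKBIA (ENSG00000100906, chromosome 14, 35401511 to 35404749, minus strand), the inhibitor that holds RELA dimers in the cytoplasm, had 49.7, 42.6, 44.3 and 50.7 FPKM in untreated libraries 1, 3, 4 and 5. Dexamethasone libraries had 78.0, 79.8, 80.3 and 86.6 FPKM, all above the untreated ones and within a narrow band. The mean rose 1.73-fold, from 46.8 ± 3.96 to 81.2 ± 3.76 FPKM (SD, n = 4 each), and the log2 fold change was 0.78 with a standard error of 0.168 (adjusted p = 0.00769, limma). The ratio of NFKBIA to RELA was 1.23 to 2.30 in untreated and 2.56 to 4.75 in dexamethasone libraries.

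TNFAIP3 (ENSG00000118503, chromosome 6, 137867188 to 137883312, plus strand) was the least abundant member in untreated cells, at 1.70, 2.0, 2.46 and 1.16 FPKM in replicates 1, 3, 4 and 5, and had 3.30, 4.18, 3.66 and 3.41 FPKM after dexamethasone. The lowest dexamethasone library still exceeded the highest untreated one. Its mean rose 1.99-fold, from 1.83 ± 0.544 to 3.64 ± 0.391 FPKM (SD, n = 4 each), and the log2 fold change of 0.74 (standard error 0.130, adjusted p = 0.00256, limma) understates this because the pseudocount of 1 weighs on low values. The gene overlaps WAKMAR2 on the opposite strand.

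TNIP1 (ENSG00000145901, chromosome 5, 151029945 to 151093577, minus strand), which binds TNFAIP3 and ubiquitin chains, was far more abundant than its partner. It had 62.6, 47.4, 60.2 and 66.5 FPKM in untreated replicates 1, 3, 4 and 5 and 87.3, 96.6, 92.7 and 119 FPKM in dexamethasone ones. The groups did not overlap, and the mean rose 1.67-fold from 59.2 ± 8.30 to 99.0 ± 14.2 FPKM (SD, n = 4 each), and the log2 fold change was 0.73 with a standard error of 0.212 (adjusted p = 0.0307, limma). This was the weakest call among the members. It was lost in fits without untreated replicate 1, 3 or 4 or dexamethasone replicate 3, 4 or 5, where log2 fold changes lay between 0.59 and 0.77 and limma adjusted p between 0.0568 and 0.0704. ENSG00000289970 overlaps the gene on the opposite strand.

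Among the mRNA-decay factors, ZFP36 (ENSG00000128016, chromosome 19, 39406813 to 39409412, plus strand) rose most. Untreated replicates 1, 3, 4 and 5 had 12.3, 13.1, 11.7 and 11.6 FPKM, and dexamethasone replicates 59.8, 58.4, 59.6 and 60.5 FPKM. Replicates agreed closely in both groups, with a coefficient of variation of 5.62% in untreated and 1.47% in dexamethasone libraries. The mean rose 4.90-fold, from 12.2 ± 0.684 to 59.6 ± 0.876 FPKM (SD, n = 4 each), and the log2 fold change of 2.20 (standard error 0.124, adjusted p = 2.44e-06, limma) was above that of 99.3% of all genes tested.

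ZFP36L2 (ENSG00000152518, chromosome 2, 43222402 to 43226609, minus strand) rose less. Its untreated values were 13.6, 15.6, 15.5 and 10.2 FPKM and its dexamethasone values 22.3, 23.9, 22.2 and 19.3 FPKM, so that replicate 5 was the lowest in both groups and the groups did not overlap. The mean rose 1.60-fold, from 13.7 ± 2.53 to 21.9 ± 1.92 FPKM (SD, n = 4 each), and the log2 fold change was 0.65 with a standard error of 0.111 (adjusted p = 0.00203, limma). ENSG00000287387 overlaps it on the opposite strand.

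ZFP36L1 (ENSG00000185650, chromosome 14, 68787660 to 68796253, minus strand) was the most abundant member in untreated cells and did not pass the test. It had 85.2, 77.9, 76.5 and 59.6 FPKM in untreated and 81.6, 83.5, 79.2 and 76.5 FPKM in dexamethasone replicates 1, 3, 4 and 5. Untreated replicate 5 lay below all the others, and the dexamethasone values fell inside the untreated range. The log2 fold change was 0.11, with a 95% interval of -0.16 to 0.37 (limma adjusted p = 0.533). ENSG00000289626 overlaps it on the same strand, so its value as a gene is uncertain where reads were shared.

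ZFP36 thus came from a minor to a major share of its family. It made up 11.04% to 14.2% of the summed FPKM of the 3 genes in untreated and 35.2% to 38.7% in dexamethasone libraries, while ZFP36L1 made up 73.1% to 76.7% and then 49.0% to 50.3%. The share of ZFP36L2 was 13.6% ± 1.38 and 13.6% ± 0.871 (SD, n = 4 each). The summed level was 101 ± 13.3 FPKM in untreated and 162 ± 4.07 FPKM in dexamethasone libraries (SD, n = 4 each).

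**Figure D3:**
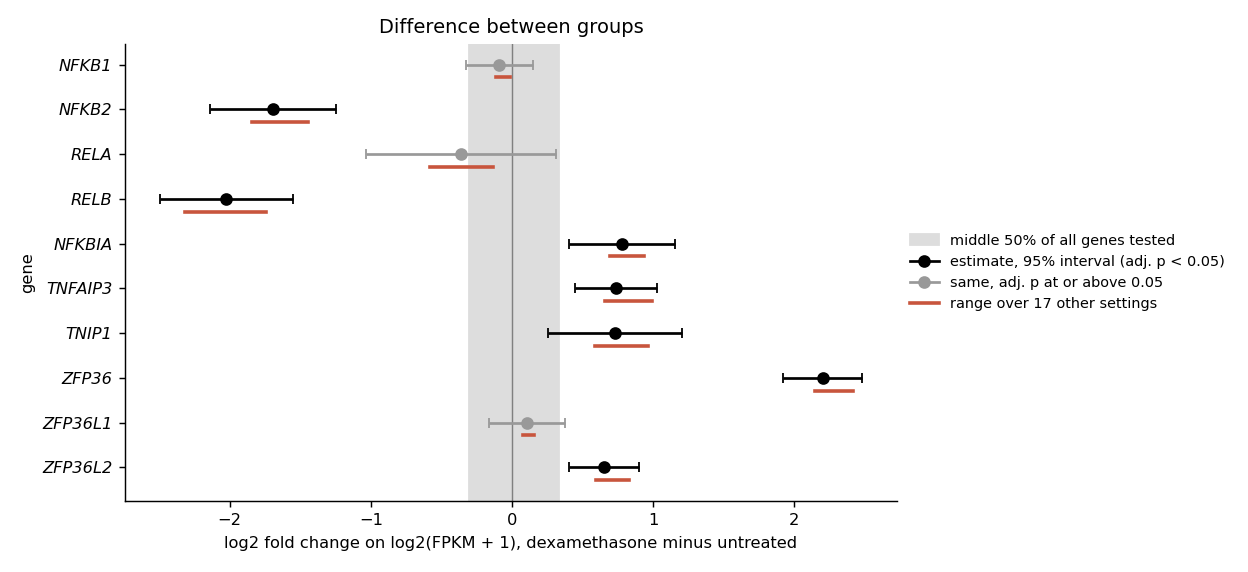
Log2 fold change of each gene (horizontal axis, dexamethasone minus untreated on the log2(FPKM + 1) scale) with its 95% interval, black where the adjusted p was under 0.05, and in red the range of the estimate over 17 other settings; the grey band spans the middle 50% of all genes tested (-0.30 to 0.33). ZFP36 at 2.20, RELB at -2.02 and NFKB2 at -1.70 lie far outside the band, and the intervals of NFKB1, RELA and ZFP36L1 cross 0.

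The order of the levels was also different in the 2 groups. In untreated cells ZFP36L1, NFKB2, TNIP1 and NFKBIA were the most abundant, and neighbours in that order overlapped. RELA came next, apart from NFKBIA above and RELB below, followed by RELB, ZFP36L2, NFKB1 and ZFP36, whose neighbouring values overlapped, and TNFAIP3 was lowest and apart. In dexamethasone cells TNIP1 was highest and apart, NFKBIA and ZFP36L1 overlapped, and ZFP36 came next, apart from both neighbours. RELA, ZFP36L2 and NFKB2 overlapped with their neighbours in the order, NFKB1 lay apart from them, and TNFAIP3 and RELB were lowest and overlapped.

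Calls among the other I-kappa-B family genes went in both directions. Of this list of 6, which included REL, all 6 were tested, 1 was higher and 2 lower (50.0% called, against 26.8% of all genes tested), with a median log2 fold change of -0.39 against 0.01 for all genes tested. NFKBIE, the epsilon inhibitor, had 7.92, 7.73, 7.22 and 8.75 FPKM in untreated replicates 1, 3, 4 and 5 and 2.22, 2.02, 1.96 and 2.79 FPKM in dexamethasone ones. It fell 3.52-fold with no overlap between groups (log2 fold change -1.46, SE 0.171, limma adjusted p = 0.000232). NFKBID, a nuclear member of the family, fell from 3.17 ± 0.180 to 1.23 ± 0.406 FPKM (SD, n = 4 each, limma adjusted p = 0.0027). The one called higher was NFKBIZ, named after its values were seen, at 2.55 ± 0.478 and 3.76 ± 0.635 FPKM (SD, n = 4 each, limma adjusted p = 0.0323). Its groups overlapped. The list counted 2 in place of 3 without scaling and without untreated replicate 3 or 4 or dexamethasone replicate 1, 3 or 4. Without both libraries numbered 5 it counted 5, while calls over all genes tested numbered 5534 in place of 3258. NFKBIB, BCL3 and REL did not pass, with log2 fold changes of -0.48, -0.31 and -0.23.

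Upstream of IKK, 13 of 17 listed receptors and adaptors were tested, with 1 higher and 3 lower (30.8%, against 26.8% of all genes tested). IL1R1, the signalling receptor for interleukin-1, rose 2.73-fold from 4.58 ± 1.40 to 12.5 ± 2.65 FPKM (SD, n = 4 each, limma adjusted p = 0.000529). TRAF2, an adaptor of both branches that also holds MAP3K14 in check, had 44.4, 46.3, 41.2 and 52.9 FPKM in untreated replicates 1, 3, 4 and 5 and 16.2, 20.5, 18.5 and 23.1 FPKM in dexamethasone ones, 2.36-fold lower (limma adjusted p = 0.00184). TRAF1, a related adaptor, fell from 2.005 ± 0.0901 to 0.971 ± 0.188 FPKM (SD, n = 4 each, limma adjusted p = 0.00155). TNFRSF11A was the remaining lower gene, named after its values were seen (log2 fold change -0.33, limma adjusted p = 0.0315). With the GC trend removed the list counted 9 in place of 4, a setting in which calls over all genes tested also rose.

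Of the 13 IKK subunits and upstream kinases, all were tested, 1 was higher and 2 lower (23.1% called, against 26.8% of all genes tested). MAP3K14, the kinase of the non-canonical branch, had 56.8, 55.4, 54.6 and 54.3 FPKM in untreated replicates 1, 3, 4 and 5 and 27.9, 32.0, 31.7 and 36.7 FPKM in dexamethasone ones, 1.72-fold lower (limma adjusted p = 0.00552). IKBKE, an IKK-related kinase, fell from 7.44 ± 0.701 to 3.76 ± 0.441 FPKM (SD, n = 4 each, limma adjusted p = 0.0055). IRAK4, a kinase of the interleukin-1 receptor pathway, was higher and was named after its values were seen (log2 fold change 0.64, limma adjusted p = 0.0416). Leaving out dexamethasone replicate 5 gave 7 calls in place of 3, and leaving out replicate 5 of both groups gave 9. Calls over all genes tested also rose in both fits. Among the genes of the lists that are given with values, IKBKE, MAP3K14, IL1R1, BIRC3, TAX1BP1, IER3, BTG1, HNRNPD, ELAVL1 and HIF1A overlap annotated genes on the opposite strand. Reads of these partners cannot be told apart unless strand was used. NFKBID, IKBKE, TRAF2, SDC4, BTG1, XRN1, ZC3H12A and HIF1A overlap annotated genes on the same strand, where strand does not help.

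Among 17 genes that write, read or remove ubiquitin chains in this pathway, 16 were tested and 3 rose. That is 18.8% called, against 26.8% of all genes tested. BIRC3, a ubiquitin ligase, was at 3.84 ± 2.19 and 11 ± 4.83 FPKM (SD, n = 4 each, limma adjusted p = 0.0192), a call that was lost without untreated replicate 1 or dexamethasone replicate 1 or 4 (limma adjusted p from 0.0553 to 0.0612). TAX1BP1, an adaptor of TNFAIP3, rose 1.79-fold from 14.4 ± 4.67 to 25.9 ± 3.25 FPKM (SD, n = 4 each, limma adjusted p = 0.00453). RNF11, a further partner of TNFAIP3, was named after its values were seen (log2 fold change 0.62, limma adjusted p = 0.0413). The list counted 1 in place of 3 without dexamethasone replicate 1 and without dexamethasone replicate 4, and 6 with replicate 5 of both groups left out. Calls over all genes tested moved in the same directions in these fits.

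Of 30 NF-kB target genes, 19 were tested and 12 passed (63.2%, against 26.8% of all genes tested), 9 lower and 3 higher. This list was written with earlier results of these data known. Its median log2 fold change was -0.54, and -0.21 with the genes under the filter on low values included. SOD2 was left out because its symbol names more than 1 identifier in the files, and the other 10, among them IL6, TNF and ICAM1, were too low to be tested. IER3, a stress-induced survival gene, had the largest standard error of the list, with 75, 25.7, 64.5 and 90.6 FPKM in untreated libraries 1, 3, 4 and 5 and 8.40, 4.95, 3.95 and 15.2 FPKM in dexamethasone ones (log2 fold change -2.85, SE 0.501, limma adjusted p = 0.00259). CCL2, the monocyte attractant, fell 5.29-fold from 20.8 ± 2.98 to 3.94 ± 0.855 FPKM (SD, n = 4 each, limma adjusted p = 2.43e-05). The higher genes were BIRC3, SDC4 and NFKBIZ (limma adjusted p from 0.0192 to 0.0323), so the calls were not all in 1 direction. The groups of NFKBIZ overlapped. Among the 9 lower genes the limma adjusted p ranged from 2.43e-05 to 0.0371, and the groups of CXCL8, named after its values were seen, overlapped. SDC4, a cell-surface proteoglycan, was at 20.8 ± 1.58 and 28.5 ± 0.847 FPKM (SD, n = 4 each, limma adjusted p = 0.0316) and lost its call in each fit without 1 library, except that without untreated replicate 5 (limma adjusted p from 0.0519 to 0.0841).

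**Figure D4:**
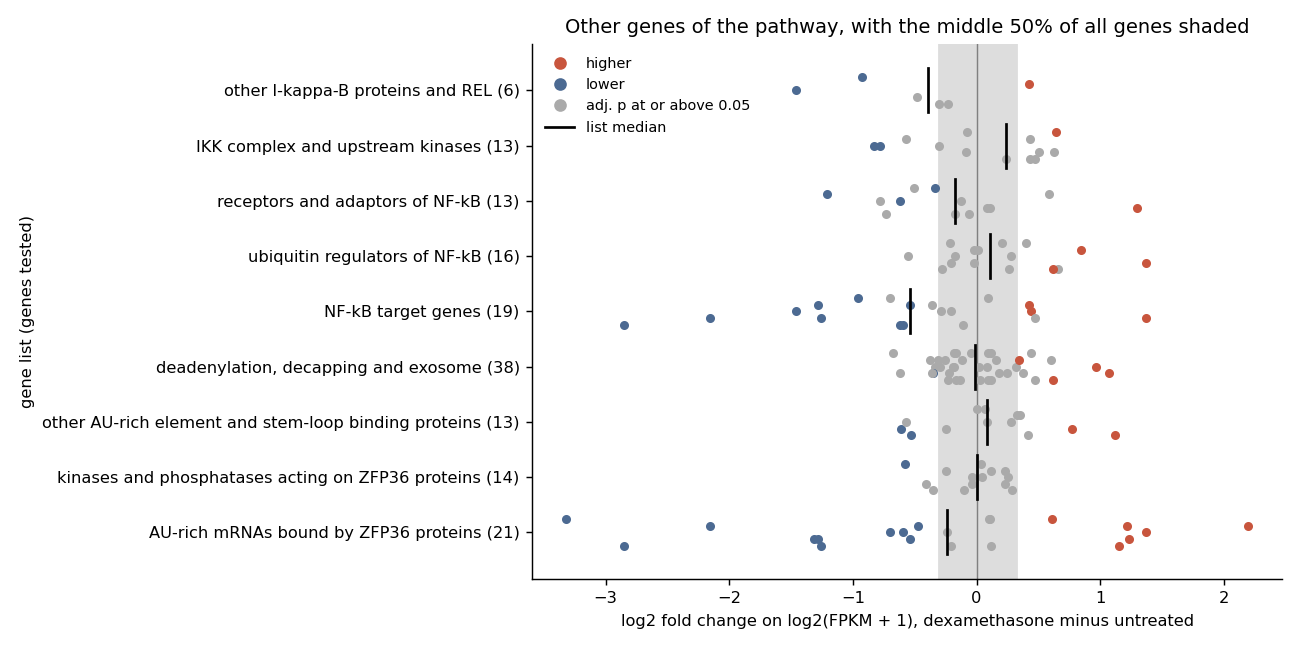
Log2 fold change (horizontal axis, dexamethasone minus untreated on the log2(FPKM + 1) scale) of every tested gene in 9 lists around the pathway, in red where higher and blue where lower at an adjusted p under 0.05, with the list median as a black bar and the middle 50% of all genes shaded. The medians of the NF-kB targets (-0.54) and of the other I-kappa-B genes (-0.39) lie below the shaded band and those of the other 7 lists inside it; with genes under the filter included the targets' median is -0.21, a value inside the band.

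On the side of mRNA decay, 38 genes of deadenylation, decapping and the exosome, which include the enzymes that ZFP36 proteins recruit, were all tested. Of these, 4 were higher and 1 lower (13.2%, against 26.8% of all genes tested), with a median log2 fold change of -0.01. BTG1, which links to the CCR4-NOT deadenylase, rose 2.16-fold, from 16.2 ± 2.75 to 34.9 ± 3.58 FPKM (SD, n = 4 each, limma adjusted p = 0.000112), and TOB2, a relative of BTG1, rose 1.58-fold (limma adjusted p = 0.00382). XRN1, the main exonuclease of decapped messages, was at 2.24 ± 1.23 and 4.98 ± 1.61 FPKM (SD, n = 4 each, limma adjusted p = 0.0278), and its call was lost without untreated replicate 1, without dexamethasone replicate 1 or 4 and without scaling (limma adjusted p from 0.0608 to 0.083). PARN (log2 fold change 0.34) and PATL1 (-0.35) were the other calls and were named after their values were seen. The list counted 2 or 3 in place of 5 without untreated replicate 1 or 3 or dexamethasone replicate 1, 3 or 4 and 3 without scaling, but 10 with the GC trend removed and 11 without both libraries numbered 5. Except without scaling, calls over all genes tested moved in the same directions.

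Of 14 other proteins that bind AU-rich or stem-loop elements, 13 were tested, 2 were higher and 2 lower. This share of 30.8% stands beside 26.8% of all genes tested. ZC3H12A (regnase-1), an endonuclease that cleaves inflammatory messages, rose 2.33-fold, with 7.89, 7.88, 7.18 and 8.11 FPKM in untreated and 16.9, 19.9, 16.8 and 18.8 FPKM in dexamethasone replicates 1, 3, 4 and 5 (adjusted p = 0.000475, limma). HNRNPD (AUF1), a decay-promoting binder, fell from 66.7 ± 8.28 to 43.4 ± 5.14 FPKM (SD, n = 4 each, limma adjusted p = 0.00503). ELAVL1 (HuR), known for stabilising AU-rich messages, was at 25.9 ± 1.11 and 17.7 ± 1.75 FPKM (SD, n = 4 each, limma adjusted p = 0.0331) and lost its call without untreated replicate 1 or 3 or dexamethasone replicate 1, 3 or 4 (limma adjusted p from 0.0518 to 0.0978). ZC3H12C was the other higher gene, named after its values were seen (log2 fold change 0.77, limma adjusted p = 0.0269). Without untreated replicate 1 or dexamethasone replicate 1, 3 or 4 the list counted 2 in place of 4, and without both libraries numbered 5 it counted 8. Calls over all genes tested fell in the former fits and rose in the latter.

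For the kinases and phosphatases that act on ZFP36 proteins, the median log2 fold change was 0.0004. They showed 1 call among 14 tested genes (7.14%, against 26.8% of all genes tested). It was MAP2K3, a kinase of the p38 pathway, at 25.8 ± 2.40 and 17.1 ± 2.84 FPKM (SD, n = 4 each, limma adjusted p = 0.0376). The call was lost without untreated replicate 1 or 4, without dexamethasone replicate 1 or 4, without the filter on low values, and with the replicate block and the GC trend removed (limma adjusted p from 0.0505 to 0.111). With the GC trend removed the list counted 5 in place of 1, while calls over all genes tested also rose.

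Messages known to be bound by ZFP36 proteins through AU-rich elements moved in both directions. Of 25 listed, 21 were tested and 16 passed (76.2%, against 26.8% of all genes tested), 10 lower and 6 higher. The median log2 fold change was -0.24, and the list was written with earlier results of these data known. IL11, a cytokine of the interleukin-6 family, had 13.5, 12.7, 10.9 and 14.8 FPKM in untreated libraries 1, 3, 4 and 5. Dexamethasone libraries of those numbers had 0.307, 0.481, 0.398 and 0.414 FPKM (log2 fold change -3.32, SE 0.168, limma adjusted p = 1.33e-06). Its mean was 32.5-fold lower, which the log2 fold change understates because the pseudocount of 1 weighs on low values. HIF1A, the oxygen-regulated transcription factor subunit, rose from 42.9 ± 19.6 to 93.4 ± 14.0 FPKM (SD, n = 4 each, limma adjusted p = 0.00892), with its lowest untreated value, 17.4 FPKM, in replicate 5. The list and that of the NF-kB targets have 8 tested genes in common, IER3, CCL2 and BIRC3 among them, and it holds ZFP36 itself.

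Members with the heptamer and members without it can be set beside all genes. Of the 5 with TATTTAT, 4 rose and ZFP36L1 did not pass, and of the 5 without it TNIP1 rose, NFKB2 and RELB fell and NFKB1 and RELA did not pass. Across 4287 tested genes with the heptamer 15.7% were higher and 11.4% lower, with a median log2 fold change of 0.14, and across the 7773 without it 10.9% were higher and 15.8% lower, with a median of -0.06. The genes also differed in GC content, with a median of 43.2% with and 52.4% without the heptamer, and in median 3' UTR length, 2616 against 832 bases. With each library's trend on GC content removed, the medians were 0.007 and 0.0036. Among the members, NFKB2 (61.2% GC) and RELB (64.9% GC) had the highest GC content, and with the GC trend removed their log2 fold changes were -1.45 and -1.75 and both stayed past the threshold.

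Genes whose profile over the 8 libraries was most like that of a called member were sought as a description, by the root mean square difference of mean-centred log2(FPKM + 1) values. For NFKB2 the nearest were AXL (0.089) and DPYSL3 (0.0996), for RELB FGFR4 (0.109) and STMN3 (0.13), and for ZFP36 FAM43A (0.0841) and C5AR2 (0.104). For NFKBIA they were EVI5L (0.0572) and TFEB (0.0593), for TNFAIP3 APOD (0.0681) and IFI16 (0.0801), for TNIP1 THAP8 (0.0989) and WDR13 (0.099), and for ZFP36L2 SERINC3 (0.0513) and TUBA3D (0.0565). AXL, a receptor tyrosine kinase, was 3.07-fold lower in dexamethasone libraries (115 ± 4.18 and 37.4 ± 6.21 FPKM, SD, n = 4 each), beside 3.30-fold for NFKB2. C5AR2 and TUBA3D were near 0 in untreated cells, at 0.0573 ± 0.0299 and 0.0316 ± 0.0320 FPKM (SD, n = 4 each), so their likeness holds on this scale and not as a ratio.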

How the data were processed

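RNA of 8 A549 wells was depleted of ribosomal RNA and sequenced as paired ends, per the labels' protocols. Per the submitters' processing notes and the series' design text, the authors used FastQC 0.11.9, cutadapt 3.4, STAR 2.7.9a on GRCh38 and featureCounts (Subread 2.0.3), and tested with DESeq2 1.32.0. The annotation, the use of strand and the step to the deposited values are not given in the sources used here. The deposited values, described as counts, are not whole numbers and were read as FPKM from their sums (338989 to 373855 per library) and their low steps, of which only 39.4% to 46.0% per library came within 0.1 of whole fragments. Counts could therefore not be rebuilt, so count models were not applied.

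Printed FPKM are as deposited. For tests, libraries were scaled by an unweighted trimmed mean of M values (0.3 of M and 0.05 of A trimmed on each side, divisors 0.820 to 1.08), genes with at least 0.5 FPKM in at least 4 libraries were kept (3 where a library was left out), and log2(FPKM + 1) was tested two-sided with limma 3.58.1 in R 4.3.3 (trend and robust), the group being the only term, with Benjamini-Hochberg adjustment over 12161 genes. The fit was also run on simulated data with independent noise for each gene. Those data held no replicate or GC trend, so that run does not show how the fit behaves where such trends are present. GENCODE v44 (GRCh38) matched 19065 of 19158 genes by identifier and gave strand, overlaps, GC content and 3' UTRs; coordinates of genes are those deposited, and promoter sequences are from RefSeq. The members and lists were chosen with earlier results of these data known. Named besides the members were the treatment checks, up to 3 rises and 3 falls per list among called genes without overlap, and the 2 nearest profiles per called member. A gene that met this rule in more than 1 list (NFKBIE, BIRC3, IER3 and CCL2) was described once. Alternatives were another pseudocount, no filter, no or upper-quartile scaling, a replicate block, removal of the GC trend, both together, fits without single libraries or both numbered 5, and plain eBayes.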

Additional observations from a re-analysis of the deposited data

Results flagged for a closer look

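In 50 groups of 4 values (the members, their sums, shares and ratios), 1 held a library that stood apart from the other 3 by more than Dixon's 95% critical value, which chance exceeds in about 1 in 20, or 2.5. It was the ratio of NFKB2 to NFKB1 in untreated replicate 5, at 6.53 against 4.73 to 4.89 in the other untreated libraries. That library held both the highest NFKB2 (71.8 FPKM) and the lowest NFKB1 (11 FPKM) of its group, and 10555 genes at 1 FPKM or more where the other untreated libraries held 11290 to 11378. The part of that library's composition in the ratio was not tested. Without both libraries numbered 5, the log2 fold changes were -1.71 for NFKB2 and -0.10 for NFKB1.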

How the results depend on the processing

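No member changed direction under any of the 17 alternatives, and 6 called members (NFKB2, RELB, NFKBIA, TNFAIP3, ZFP36 and ZFP36L2) kept their call in all of them, while TNIP1 kept it in 11. The members called numbered 6 to 7 without single libraries and 8 with the replicate block, which added RELA (log2 fold change -0.36, limma adjusted p = 0.0104) and ended no call of a member. With the replicate block and the GC trend removed together RELA was at -0.13 (limma adjusted p = 0.181) and the members called were 7. Same-numbered libraries deviated together with correlations of 0.294, 0.067, 0.315 and 0.713 for numbers 1, 3, 4 and 5. Libraries of different numbers had correlations of -0.573 to 0.435. Dexamethasone replicate 1 and untreated replicates 3 and 4 correlated more with another number than with their own. The labels name no shared source for a number, so the main fit has no replicate term. Whether the numbers pair the wells is not settled by these values. RELA in dexamethasone libraries was 0.759, 0.758, 0.712 and 0.872 of the untreated library of the same number. With the replicate block, the replicate block with the GC trend removed, and both libraries numbered 5 left out, 5738, 5317 and 5534 genes were called in place of 3258, of which 2908, 2667 and 2769 were higher and 2830, 2650 and 2765 lower.

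Counts in the lists depended more on the setting, and calls over all genes tested moved as well. Those rose with the replicate block, with the GC trend removed and without both libraries numbered 5. They fell in each fit without 1 library, except those without a replicate 5. Under the replicate block, 13 of 38 decay enzymes and 8 of 13 tested receptors and adaptors were called beside 5738 of 12161 genes tested. Whether a list moved more than all genes was not tested. List counts with the replicate block were 5 (other I-kappa-B genes and REL), 9 (IKK and upstream kinases), 8 (receptors and adaptors), 6 (ubiquitin regulators), 13 (decay enzymes) and 3 (kinases acting on ZFP36 proteins). With the replicate block and the GC trend removed they were 6, 10, 6, 11 and 5 for the same lists from IKK on, and with the GC trend removed 9 for receptors and adaptors, 10 for decay enzymes and 5 for kinases acting on ZFP36. Without both libraries numbered 5 they were 5, 9, 6, 11, 8 and 3 for other I-kappa-B genes, IKK, ubiquitin regulators, decay enzymes, other AU-rich binders and kinases acting on ZFP36. Without scaling, decay enzymes counted 3 and kinases acting on ZFP36 counted 2, and without the filter the latter counted 0. Without single libraries the ranges were 2 to 7 (IKK), 1 to 4 (ubiquitin), 2 to 7 (decay enzymes), 2 to 5 (other AU-rich binders) and 0 to 1 (kinases acting on ZFP36). The cause was not tested. The counts of NF-kB targets and of AU-rich messages stayed within 1.5 times throughout, but the median log2 fold change of the NF-kB targets, -0.54, was -0.21 without the filter, where more genes enter it, and -0.65 with a pseudocount of 0.1. With the GC trend removed the medians of receptors and adaptors, IKK and upstream kinases and other AU-rich binders were -0.32, 0.12 and -0.04 in place of -0.17, 0.24 and 0.09. Depth limits TNFAIP3 and RELB most, with roughly 133 and 146 fragments in the lowest library of each.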
